A study of Mus musculus with 4 samples.

Results

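The genes described here are 10 transcription factors that establish and keep the identity of the beta cell: *Pdx1*, *Mafa*, *Nkx6-1*, *Nkx2-2*, *Neurod1*, *Pax6*, *Isl1*, *Foxa2*, *Insm1* and *Rfx6*. They were chosen by name, with earlier results of these data known, and each was taken from the islet table by its gene symbol. Where a gene had several RefSeq rows, the row with the highest mean level was used. All 10 were found among the 24157 genes and lncRNAs of the table when each is counted once. The samples were whole islets of male C57bl6 mice aged 3 months, which were pooled and rested overnight in 11 mM glucose. After 2 h in 2.8 mM glucose, sets of 100 islets were incubated in 2.8 mM or in 16.8 mM glucose, with 2 replicate libraries at each concentration. The series' design text gives 12 h for both concentrations, but the sample labels give 2 h for the libraries at 2.8 mM, and this conflict could not be settled. Because all islets came from one pool, every p-value below measures the spread between these libraries, which may be technical, and not the spread between mice. Whole islets hold alpha, delta and other cells beside the beta cells, and in such bulk samples fewer cells of a type and less RNA per cell cannot be told apart.

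Transcription factors bind short DNA motifs near their target genes and switch those genes on or off. In the adult beta cell, PDX1, MAFA, NEUROD1 and NKX6-1 act together on the genes for insulin, its processing enzymes and the machinery that couples glucose to secretion, and loss of any of them impairs insulin secretion. NKX2-2, PAX6, ISL1, FOXA2, INSM1 and RFX6 work more widely in endocrine cells of the islet, and in mice several of them are needed already for the embryonic pancreas to form its endocrine cells.

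The sequence just upstream of a transcription start holds part of the sites through which such factors regulate one another. Upstream sequence of 250 bases was taken from RefSeq promoters (GRCm38.p6) for 8 of the 10 genes, with no entry for *Mafa* and *Insm1*, and all were placed on NCBI build 37, the build of the deposited table, by exact match. Sequences of 3 genes are shown, of *Pdx1* and *Nkx2-2*, which rose at 16.8 mM glucose, and of *Rfx6*, which fell. The starts are those of RefSeq transcripts and can differ from the ends of the annotated gene spans given below. Of the windows shown, those of *Nkx2-2* and *Rfx6* lie inside these spans, and that of *Pdx1* reaches into its span. Capitals mark CANNTG, the E-box, which is the motif that NEUROD1 and other basic helix-loop-helix proteins recognise, and both strands were searched.
*Pdx1*, chr5:148081423-148081672, plus strand: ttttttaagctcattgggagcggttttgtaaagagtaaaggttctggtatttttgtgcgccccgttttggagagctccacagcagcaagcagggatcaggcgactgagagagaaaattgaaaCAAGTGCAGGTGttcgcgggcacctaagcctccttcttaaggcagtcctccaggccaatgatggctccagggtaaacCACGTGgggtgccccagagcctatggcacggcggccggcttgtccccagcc
*Nkx2-2*, chr2:147012139-147012388, minus strand: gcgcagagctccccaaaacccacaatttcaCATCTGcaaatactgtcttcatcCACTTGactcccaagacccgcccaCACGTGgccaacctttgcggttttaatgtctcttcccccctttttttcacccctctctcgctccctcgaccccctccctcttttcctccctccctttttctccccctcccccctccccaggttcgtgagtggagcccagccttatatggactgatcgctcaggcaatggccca
*Rfx6*, chr10:51405074-51405323, plus strand: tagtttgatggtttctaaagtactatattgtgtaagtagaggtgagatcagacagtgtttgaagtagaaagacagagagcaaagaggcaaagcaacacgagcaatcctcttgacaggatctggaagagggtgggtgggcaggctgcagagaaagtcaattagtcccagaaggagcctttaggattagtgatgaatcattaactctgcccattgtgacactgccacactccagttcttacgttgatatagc

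The windows of *Pdx1* and *Nkx2-2* each held 3 E-boxes, and those of *Nkx6-1* and *Rfx6* held 0. Those of *Isl1* and *Neurod1*, which also rose, held 1 each, the 2 windows of *Pax6* held 0 and 1, and 1 of the 3 windows of *Foxa2* held 1. Of all 32536 mouse promoter windows of this length, 66.2% held at least 1. In both *Pdx1* and *Nkx2-2* one of the E-boxes read CACGTG, a special case of CANNTG that 6.04% of all windows held. TAAT, the core that homeodomain proteins such as PDX1, NKX6-1 and ISL1 contact, was searched as well. It occurred 3 times upstream of *Rfx6*, 1 time upstream of *Nkx2-2* and 0 times upstream of *Pdx1*, *Nkx6-1* and *Neurod1*. The window of *Isl1* and each window of *Pax6* held it 2 times, and those of *Foxa2* held it 2, 0 and 1 times. Of all windows, 54.8% held it. The motifs TGCTGA and TGTTTAC were searched too. TGCTGA occurred 2 times upstream of *Neurod1*, 1 time upstream of *Nkx6-1*, 1 time in a window of *Foxa2* and 0 times in the other windows. TGTTTAC occurred 0 times in every window. Of all windows, 16.1% held TGCTGA and 3.17% TGTTTAC. These matches describe letters in a window, not bound sites.

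The table gives a level for each transcript as RPKM, reads scaled to transcript length and library depth. All 10 factors were measured well above the minimum mean of 1 RPKM that was set for a test. The change from 2.8 mM to 16.8 mM glucose was tested on log2(RPKM + 0.5) with limma over 7867 transcripts, and p-values were adjusted by Benjamini-Hochberg with a threshold of 0.05. Of the 10 factors, 7 changed, against 33.4% of all transcripts tested. Of the 7, 6 rose at 16.8 mM glucose, against 10.7% of all transcripts tested, and 1 fell, against 22.8%. Under 3 other scalings of the libraries, the share of all transcripts that rose lay between 19.5% and 21.1%. The other 3, *Nkx6-1*, *Foxa2* and *Insm1*, did not pass the test. The median log2 fold change of the 10 factors was 0.60, and that of all transcripts tested was -0.11. Both libraries at 16.8 mM lay above both at 2.8 mM for 8 factors and below them for 2, where this held for 22.2% and 48.3% of all transcripts tested, and for 70.4% in either direction.

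**Figure D1:**
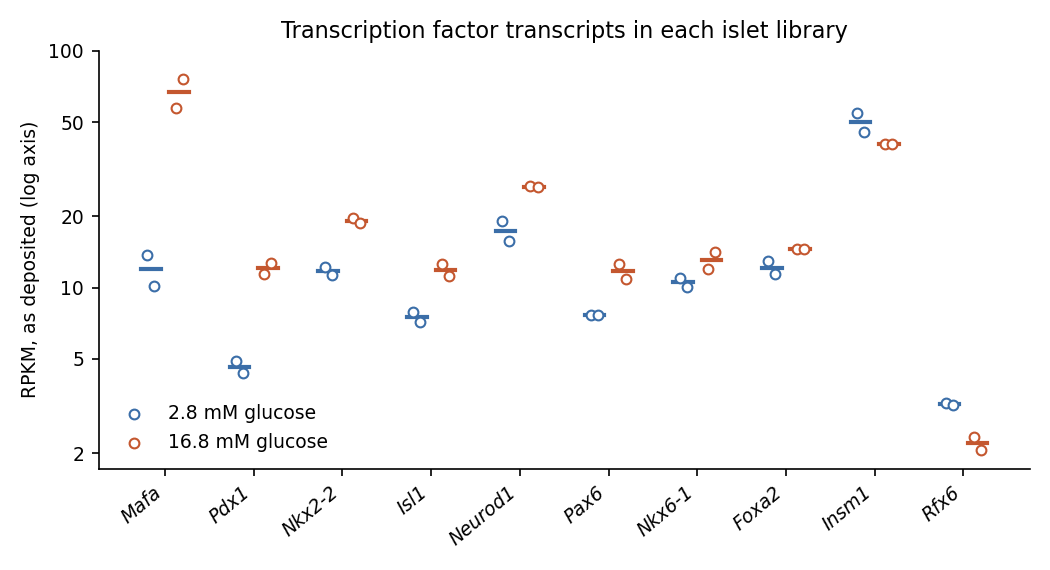
Level of each factor in RPKM on a log axis in the 2 libraries at 2.8 mM glucose (blue) and the 2 at 16.8 mM glucose (orange), where each circle is 1 library and each bar the mean. *Mafa* moved from 11.9 to 66.8 RPKM on average, while *Insm1* and *Rfx6* were lower in both libraries at 16.8 mM.

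*Mafa*, a basic leucine zipper factor that binds the insulin promoter and marks mature beta cells, rose the most. It measured 13.7 and 10.2 RPKM in replicates 1 and 2 at 2.8 mM and 57.5 and 76.2 RPKM at 16.8 mM glucose. The gap between the concentrations was far wider than that between replicates, although *Mafa* also had the widest relative spread of the 10 between replicates, 1.35-fold at 2.8 mM. The means were 11.9 ± 2.50 and 66.8 ± 13.2 RPKM (SD, n = 2), a ratio of 5.60, and the log2 fold change was 2.44 (standard error 0.19, limma adjusted p = 4.2e-04). Of all transcripts tested, 99.7% had a lower log2 fold change. *Mafa* is a gene of a single exon on the minus strand of chromosome 15 (75577273 to 75578352, NCBI build 37), and its libraries held 864 and 570 reads at the lower concentration and 3766 and 4175 at the higher one.

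*Pdx1*, the homeodomain factor without which no pancreas forms and which drives insulin transcription in the adult, followed. Its level was 4.92 and 4.35 RPKM at 2.8 mM and 11.5 and 12.8 RPKM at 16.8 mM glucose, with no overlap. The log2 fold change was 1.30 (standard error 0.12, limma adjusted p = 6.0e-04), and the ratio of the means was 2.61. The gene lies on the plus strand of chromosome 5 (148081535 to 148089584), and 1563 bases of it overlap *2210019I11Rik* on the opposite strand. That transcript stood at 0.325 and 0.315 RPKM at 2.8 mM and at 0.760 and 0.843 RPKM at 16.8 mM. The library kit does not mark strand, so reads in the stretch that the genes share cannot be assigned to either.

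A further 4 factors rose by similar amounts, with ratios of the means between 1.54 and 1.63. *Nkx2-2*, a homeodomain factor that keeps beta cells from taking on other islet fates, measured 12.2 and 11.3 RPKM at 2.8 mM and 19.6 and 18.7 RPKM at 16.8 mM glucose. *Isl1*, a LIM homeodomain factor of all islet endocrine cells, measured 7.91 and 7.13 RPKM against 12.5 and 11.2 RPKM. *Neurod1*, the helix-loop-helix activator of the insulin genes, measured 19.1 and 15.7 RPKM against 26.8 and 26.6 RPKM. For each of these the lower library at 16.8 mM exceeded the higher one at 2.8 mM. *Pax6*, a paired and homeodomain factor that supports hormone gene expression in islet cells, measured 7.67 and 7.63 RPKM against 12.6 and 10.9 RPKM, again without overlap. The log2 fold changes were 0.69 for *Nkx2-2* (standard error 0.12, limma adjusted p = 0.0058), 0.62 for *Isl1* (0.12, adjusted p = 0.0089), 0.61 for *Neurod1* (0.14, adjusted p = 0.0157) and 0.58 for *Pax6* (0.12, adjusted p = 0.0108). Of these calls, 2 depended on a single library. Without replicate 2 at 16.8 mM the log2 fold change of *Neurod1* was 0.62 with an adjusted p of 0.0537, and without replicate 1 at 16.8 mM that of *Pax6* was 0.48 with an adjusted p of 0.0506.

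Of these 4 genes, 3 overlap other annotated genes, so that reads can be shared. *Neurod1* (chromosome 2, 79292678 to 79296908, minus strand) lies wholly within the annotated span of *Cerkl* on the same strand, which stood between 0.308 and 0.357 RPKM, and shares 2767 bases with *Gm17325* on the other strand. *Pax6* (chromosome 2, 105509053 to 105543317, plus strand) overlaps the antisense transcript *Pax6os1* over 1435 bases, and the latter measured 4.94 and 4.47 RPKM at 2.8 mM and 3.79 and 3.56 RPKM at 16.8 mM, lower where *Pax6* was higher. It also shares 5841 bases with *Elp4* on the opposite strand, at 0.0978 to 0.111 RPKM. *Nkx2-2* (chromosome 2, 147003282 to 147019979, minus strand) overlaps *6430503K07Rik* on the opposite strand over 984 bases, with 3.17 and 3.00 RPKM against 5.36 and 4.28 RPKM. Its longest overlap, of 10161 bases, is with *Nkx2-2as*, also on the opposite strand, for which no row of that name was used. The antisense row listed as *Nkx2-2os* measured 0.376 and 0.336 RPKM against 0.661 and 0.599 RPKM. *Isl1* (chromosome 13, 117088478 to 117099896, minus strand) overlaps no other annotated gene, and its libraries held 5281 and 4228 reads at the lower concentration and 8684 and 6474 at the higher one.

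The homeodomain factor *Nkx6-1* (chromosome 5, 102087158 to 102094245, minus strand), which represses alpha cell genes in beta cells, measured 11.0 and 10.1 RPKM at 2.8 mM and 12.0 and 14.1 RPKM at 16.8 mM glucose. Its log2 fold change of 0.29 (standard error 0.13) did not pass the test (limma adjusted p = 0.126). *Foxa2* (chromosome 2, 147868613 to 147872705, minus strand), a forkhead factor that opens chromatin in the endoderm and regulates *Pdx1*, measured 12.9 and 11.4 RPKM against 14.6 and 14.6 RPKM. The log2 fold change was 0.26 (standard error 0.12, limma adjusted p = 0.136). Neither pair of groups overlapped, so both libraries at 16.8 mM were higher for each gene, but the difference was not larger than the spread allowed for in the test. *Foxa2* passed when the libraries were centred on their median (log2 fold change 0.34, adjusted p = 0.0205), and both passed with limma's voom method on reads rebuilt from the RPKM values, with adjusted p-values of 0.0353 for *Nkx6-1* and 0.049999 for *Foxa2*. Leaving out 1 library took *Nkx6-1* to 0.17 (without replicate 2 at 16.8 mM, adjusted p = 0.562) and *Foxa2* to 0.17 (without replicate 2 at 2.8 mM, adjusted p = 0.441).

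*Insm1* and *Rfx6* were the 2 factors with lower values at 16.8 mM glucose. *Rfx6* (chromosome 10, 51397562 to 51450235, plus strand), a winged-helix factor that directs endocrine development and maintains the secretory function of adult beta cells, measured 3.26 and 3.19 RPKM at 2.8 mM and 2.35 and 2.06 RPKM at 16.8 mM. It fell by 0.46 on the log2 scale (standard error 0.09, limma adjusted p = 0.0109), from 8557 and 7440 reads at the lower concentration to 6397 and 4708 at the higher one. *Insm1* (chromosome 2, 146047657 to 146050752, plus strand), a zinc finger repressor of endocrine progenitors and of mature islet cells, measured 54.6 and 45.2 RPKM against 40.5 and 40.6 RPKM. Its 2 libraries at 2.8 mM were further apart than those at 16.8 mM, and the log2 fold change of -0.29 (standard error 0.14) did not pass the test (limma adjusted p = 0.155). Its size depended on the libraries at 2.8 mM. Without replicate 1 there it was -0.15 (adjusted p = 0.550), and without replicate 2 it was -0.42 (adjusted p = 0.0374).

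**Figure D2:**
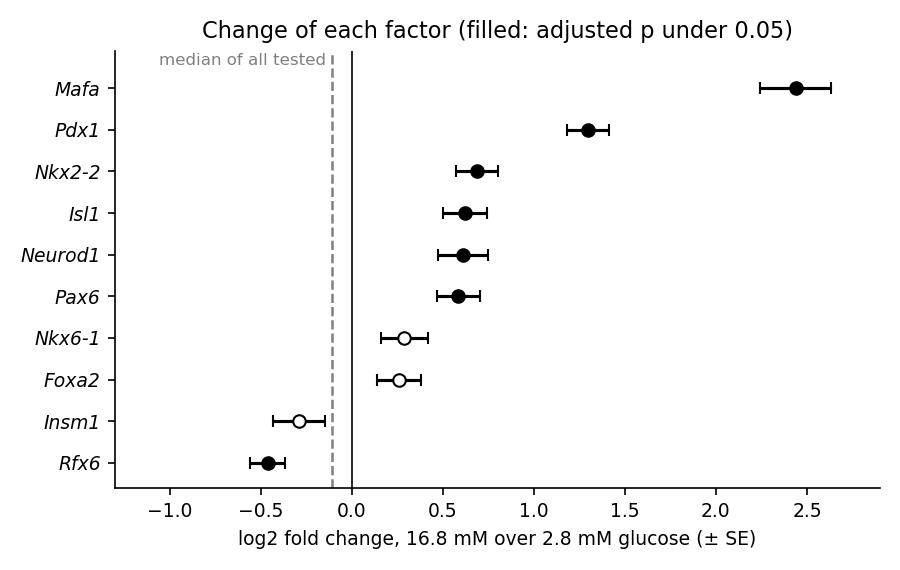
Log2 fold change of each factor from 2.8 mM to 16.8 mM glucose with its standard error, from limma on log2(RPKM + 0.5), 2 libraries a group. Filled points passed an adjusted p of 0.05, and the dashed line marks the median of all transcripts tested, -0.11.

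Because their changes were unequal, the makeup of the set shifted. Its summed level was 147 and 126 RPKM at 2.8 mM and 210 and 228 RPKM at 16.8 mM glucose. *Mafa* made up 9.30% and 8.06% of that sum at 2.8 mM and 27.4% and 33.5% at 16.8 mM. The share of *Insm1* was 37.1% and 35.8% at 2.8 mM and 19.3% and 17.8% at 16.8 mM. Per kb of exons in place of the genomic span, these shares were 3.70% and 3.01% against 11.0% and 14.6% for *Mafa*, and 14.7% and 13.4% against 7.77% and 7.78% for *Insm1*. By deposited level, *Insm1* was highest at 2.8 mM, followed by *Neurod1*, then by *Foxa2*, *Mafa* and *Nkx2-2*, whose neighbouring libraries overlapped, then *Nkx6-1*, then *Pax6* and *Isl1*, which overlapped, then *Pdx1*, and *Rfx6* was lowest. At 16.8 mM the order was *Mafa*, *Insm1*, *Neurod1*, *Nkx2-2* and *Foxa2*, with no overlap between neighbours, then *Nkx6-1*, *Pdx1*, *Isl1* and *Pax6*, whose neighbouring libraries overlapped, and *Rfx6* was again lowest.

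This order depends on the length by which reads are divided. The authors' reads turned out to be divided by the span of the whole gene body with its introns. This sets genes with long introns lower, and whether reads within introns were counted was not tested. *Rfx6* spans 44912 bases but has 3088 bases of exons, and *Mafa* has 1080 bases by either measure. When the same reads were divided by summed exon length, *Pax6* was highest at both concentrations, with means of 74.4 RPKM at 2.8 mM and 114 RPKM at 16.8 mM on that scale, and *Rfx6* stood at 46.9 RPKM at 2.8 mM, behind *Pax6* and *Insm1*. *Mafa* was then lowest at 2.8 mM with 11.9 RPKM, and at 16.8 mM, with 66.8 RPKM, it came next to *Pax6*. This rescaling counts every read as exonic, so genes with long introns are set too high if some of their reads are intronic. For *Pdx1*, *Nkx6-1* and *Neurod1* it also rests on lengths inferred from whole reads, not on annotated ones. The length cancels in the plain ratio of 1 row between the concentrations. It does not cancel fully in the fitted changes, because 0.5 RPKM was added before log2. For *Rfx6* the plain log2 ratio was -0.55 and the fitted change -0.46. Whether a transcript reached the minimum of 1 RPKM depends on the length as well.

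**Figure D3:**
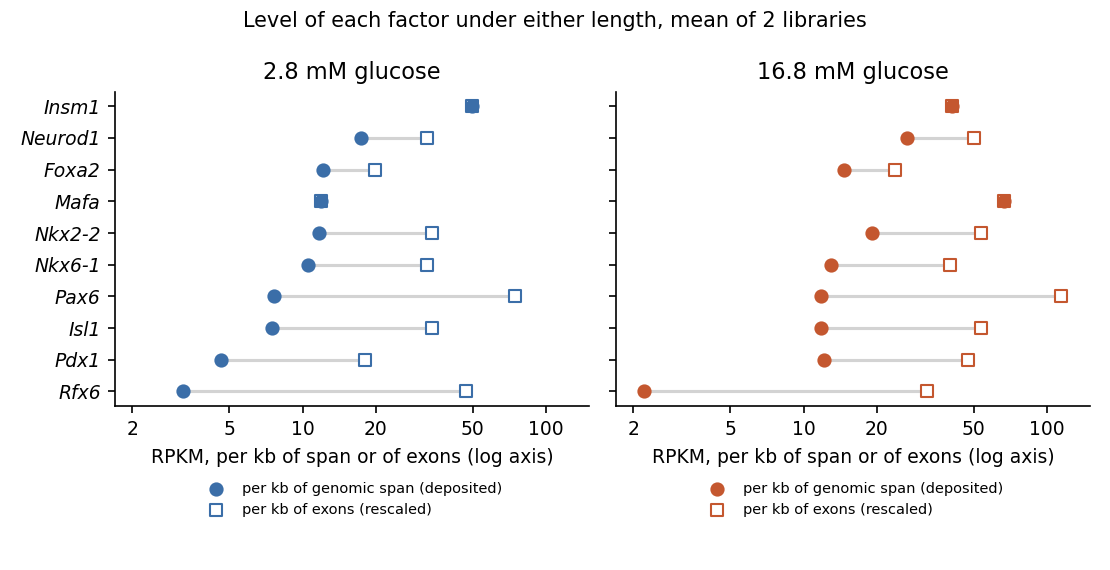
Mean level of each factor over 2 libraries, as RPKM on a log axis, per kb of genomic span as deposited (filled circles) and per kb of exons (open squares), at 2.8 mM (left) and 16.8 mM glucose (right). *Rfx6* and *Pax6* shift the most, and *Mafa* and *Insm1*, which have a single exon, do not shift. All squares count every read as exonic. Those of *Pax6* and *Nkx2-2* rest on another RefSeq row of the gene, whose length could be recovered. Those of *Pdx1*, *Nkx6-1* and *Neurod1* rest on lengths found by a search near the annotated spans.

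Of the 145 lncRNA rows in the table, 4 lie nearest to the start of a member. The one listed at position 102003685 of chromosome 5, 90.6 kb from the start of *Nkx6-1*, measured 0.428 and 0.502 RPKM at 2.8 mM and 1.63 and 2.31 RPKM at 16.8 mM glucose. It rose by a log2 fold change of 1.34 (standard error 0.13, limma adjusted p = 7.8e-04), whereas *Nkx6-1* itself did not pass the test. It reached the minimum mean of 1 RPKM through its libraries at 16.8 mM alone, and dropped out of the test where 1 RPKM was asked of every library. That the lncRNA and *Nkx6-1* differ in their change was not tested. The other 3 were under the minimum and were tested in the alternative without one. Another lncRNA near *Nkx6-1*, at position 102080968, measured 0.385 and 0.369 RPKM against 0.689 and 0.647 RPKM, and one 18.0 kb from *Pdx1*, at position 148099531, measured 0.208 and 0.257 RPKM against 0.438 and 0.475 RPKM. The one near *Foxa2*, at position 147816222 of chromosome 2, measured 0.199 and 0.180 RPKM against 0.196 and 0.177 RPKM. Without a minimum, the log2 fold change was 0.41 for the other lncRNA near *Nkx6-1* (limma adjusted p = 0.0295), 0.38 for that near *Pdx1* (0.0361) and -0.0064 for that near *Foxa2* (0.905). In that same alternative, the lncRNA at position 102003685 kept its change of 1.34, with a limma adjusted p of 0.0321.

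The transcripts whose 4 library values were most like those of *Mafa*, by Euclidean distance of log2 values centred on their mean, were *Mir298* and 2 rows of *G6pc2*, at distances between 0.39 and 0.45. *Mir298* was listed at 0 in both libraries at 2.8 mM and measured 2.03 and 3.40 RPKM at 16.8 mM. It entered the test through the latter libraries alone, and its distance to *Mafa* is set by the 0.5 RPKM added to its zeros. Nearest to *Rfx6* were *Prpf40b*, *Tmem150a* and *Nhlrc3*, at distances between 0.0091 and 0.0148. With 4 libraries this likeness is a description of a pattern.

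The factors were set beside the genes they are known to act on, a list that was also chosen with earlier results of these data known. Of 20 target genes of beta cells, all were tested, 12 rose and 2 fell, with a median log2 fold change of 0.58, where 10.7% of all transcripts tested rose and 22.8% fell. Among the rises were *Ins1*, an insulin gene, at 3113 and 3072 RPKM at 2.8 mM and 10735 and 10364 RPKM at 16.8 mM, and *Pcsk1*, a proinsulin convertase, at 2.60 and 2.40 against 9.18 and 10.9 RPKM. *G6pc2*, a glucose-6-phosphatase of the beta cell, measured 27.5 and 25.9 RPKM against 177 and 202 RPKM, and *Ffar1*, a receptor for fatty acids, 9.08 and 9.09 RPKM against 24.5 and 25.7 RPKM. All 4 were well apart between the concentrations, with log2 fold changes of 2.80 for *G6pc2*, 1.81 for *Pcsk1*, 1.77 for *Ins1* and 1.42 for *Ffar1* (standard errors between 0.09 and 0.14, limma adjusted p between 6.1e-05 and 4.2e-04). The 2 that fell, named after their values were seen, were *Kcnj11*, a subunit of the ATP-sensitive potassium channel (log2 fold change -0.48, limma adjusted p = 0.0233), and *Glp1r*, the receptor for GLP-1 (-0.39, limma adjusted p = 0.0266). Leaving out either library at 16.8 mM ended the call of *Kcnj11* (adjusted p = 0.0917 and 0.1605), and leaving out replicate 2 at 2.8 mM or replicate 1 at 16.8 mM ended that of *Glp1r* (0.0869 and 0.124).

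Among other transcription factors and cofactors of the islet, those that reached the minimum had lower medians. Of 20 further islet and pancreas factors, 5 reached it. Of these, 1 rose and 1 fell, with a median of -0.22, where 33.4% of all transcripts tested changed in either direction. The 15 under the minimum, which acts on reads per kb of genomic span, have no part in this median. With voom, 17 of the 20 were tested, and 4 rose and 2 fell, where 12.6% and 27.6% of all transcripts did. *Mnx1*, a homeodomain factor of beta cells, rose from 1.23 and 0.915 RPKM to 2.68 and 2.51 RPKM (log2 fold change 0.98, standard error 0.11, limma adjusted p = 0.0014). *Mnx1* was not tested where 1 RPKM was asked of every library, and there 0 factors of this list rose and 2 fell. *Myt1*, a zinc finger factor of endocrine cells, fell from 2.14 and 2.09 RPKM to 1.55 and 1.37 RPKM (-0.41, standard error 0.09, limma adjusted p = 0.0119). Of 16 partners and cofactors of the 10 factors, 7 were tested, 0 rose and 2 fell in limma, with a median of -0.18, where 22.8% of all transcripts tested fell. At an unadjusted p under 0.05, 0 of these 7 were higher and 3 lower, as they were with voom, which called 5 of all 16. The 2 that fell were *Ncoa6*, a nuclear receptor coactivator, at -0.43 (standard error 0.08, limma adjusted p = 0.0068) and *Tle3*, a Groucho corepressor, at -0.31 (0.08, limma adjusted p = 0.0234). *Ncoa6* averaged under 1 RPKM at 16.8 mM, reached the minimum through the libraries at 2.8 mM and was not tested where 1 RPKM was asked of every library. The call of *Tle3* was lost without replicate 1 or 2 at 2.8 mM or replicate 2 at 16.8 mM (adjusted p between 0.0516 and 0.115).

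**Figure D4:**
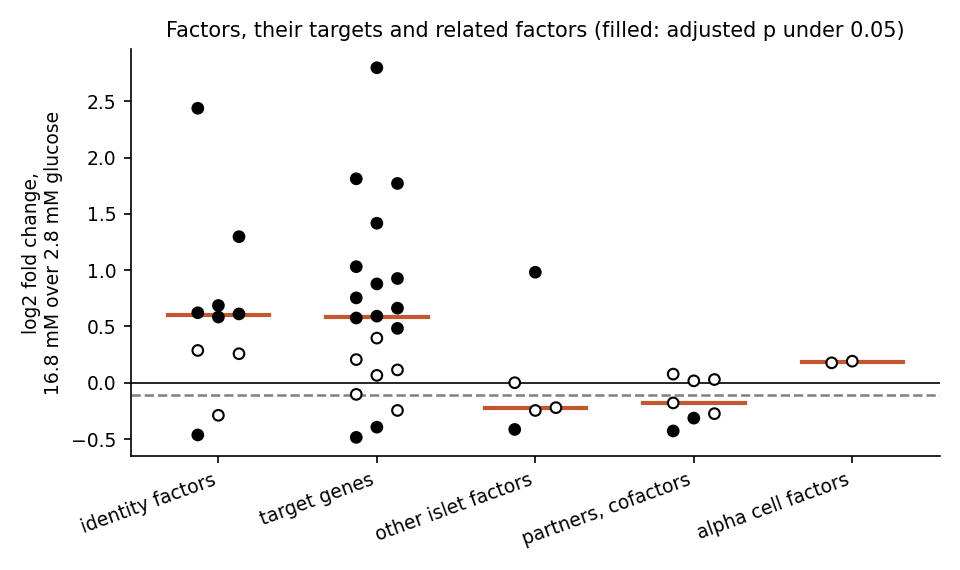
Log2 fold change from 2.8 mM to 16.8 mM glucose of each gene tested, for the 10 identity factors, 20 target genes, 5 other islet factors, 7 partners and cofactors and 2 alpha cell factors. Filled points passed an adjusted p of 0.05, orange bars are medians, and the dashed line is the median of all transcripts tested.

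Factors of the alpha cell, the glucagon-producing neighbour of the beta cell, were examined in the same way. Of 4, 2 were tested and 0 passed in limma, also at an unadjusted p under 0.05 and with voom, and their median log2 fold change was 0.18. These were *Irx1* and *Irx2*, homeodomain factors of alpha cells, with log2 fold changes of 0.19 and 0.18 (limma adjusted p = 0.195 and 0.396). Without replicate 2 at 2.8 mM these were 0.075 and -0.015, and without replicate 1 at 16.8 mM 0.12 and 0.039. Without the other libraries they were higher, at 0.31 and 0.37 without replicate 1 at 2.8 mM and 0.26 and 0.32 without replicate 2 at 16.8 mM.

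The markers of the islet's cell types were checked in the same libraries. Summed beta cell markers were 22911 and 20566 RPKM at 2.8 mM and 43826 and 41057 RPKM at 16.8 mM, and 5 of the 6 rose. Summed alpha cell markers were 2203 and 1687 RPKM against 2161 and 1529 RPKM, with 0 of 3 tested passing, and summed delta cell markers 598 and 447 against 704 and 696 RPKM, with 0 of 3. At an unadjusted p under 0.05, and with voom, 1 of the alpha markers and 1 of the delta markers, both higher at 16.8 mM, passed. Acinar markers, from the digestive enzyme cells around the islet, summed to 53.6 and 149 RPKM at 2.8 mM and to 128 and 249 RPKM at 16.8 mM. All 7 acinar genes tested had a higher mean at 16.8 mM, and 0 passed in limma (adjusted p between 0.0810 and 0.167), 3 at an unadjusted p under 0.05 and 6 with voom. Among these, *Cpb1* averaged 0.749 RPKM at 2.8 mM and 1.61 RPKM at 16.8 mM. *Cpb1* reached the minimum through the latter group, so its direction was set by the minimum. The PP cell hormone *Ppy* measured between 729 and 1138 RPKM in the 4 libraries, and duct markers summed to between 35.2 and 46.7 RPKM, with *Spp1* higher and *Krt7* lower at 16.8 mM among 3 tested. Endothelial, leukocyte and stromal markers summed to between 1.59 and 14.0 RPKM in every library. The part of these cells in the changes of the factors was not tested.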

How the data were processed

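Indexed libraries were made from islet RNA with the TruSeq RNA v2 kit and sequenced as single reads. The authors deposited 1 table of RPKM values, with a row per RefSeq transcript and per lncRNA and a column per library. The submitters' processing notes name STAR, bedtools, DESeq and the mm9 genome (NCBI build 37), and how they were applied to these islet libraries is not given in the sources used here. The values are whole reads per kb of genomic span, and their steps gave a depth of 58460000 and 51960000 reads for the libraries at 2.8 mM and of 60710000 and 50800000 at 16.8 mM. Between 97.8% and 98.6% of low values in a library were whole reads within 0.06. For genes with introns, 96.7% to 98.2% were whole with the span as length and 11.1% to 13.1% with the summed exons. Both shares were computed at the depth that had been fitted with the span. Precision is limited by the 2 libraries a group and by depth, and which of these limits it more was not tested.

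Identical rows of a gene were used once. Of the 28047 rows left, 7867 reached a mean of 1 RPKM and entered the test, which was limma (version 3.58.1, R 4.3.3) on log2(RPKM + 0.5), with a variance trend, no block and Benjamini-Hochberg adjustment, a step tested on simulated data. The 0.5 RPKM added understates the fold changes of low transcripts. Reads were rebuilt from RPKM, span and depth for voom (mean of at least 20 reads), and the lengths of *Insm1* and of the rows used for *Nkx2-2* and *Pax6* could not be recovered with certainty, so no read numbers are given for them. Rows, sequences and figures were handled with pandas 2.3.3, numpy 2.4.6 and matplotlib 3.10.9 in Python 3.11.15.

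The 10 factors and the gene lists were chosen with earlier results of these data known. Genes were named by rule, namely the 10 factors, the lncRNAs nearest to them, up to 4 genes per list with the largest change among those past the threshold, the cell type markers, and the 3 transcripts most like the factor with the largest rise and that with the largest fall. The alternatives were other added values, other minimums, other scalings, no variance trend, the replicate block, 1 row per gene, voom, other rows of a factor, the plain ratio, the ratio to the median of all transcripts and leaving out each library. The alpha and beta cell libraries of the study were not analysed here, and 1 gene of the lists is not reported here.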

Additional observations from a re-analysis of the deposited data

How the results depend on the processing

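In every alternative with a test, each of the 10 factors kept the sign of its change, and *Mafa*, *Pdx1*, *Nkx2-2*, *Isl1* and *Rfx6* kept their calls. *Mafa* ranged from 2.23 to 2.64 and *Pdx1* from 1.22 to 1.38 on the log2 scale. *Neurod1* lost its call with no minimum (adjusted p = 0.0593). *Insm1* passed after quantile normalization (adjusted p = 0.0343) and with voom (0.0349), and the falling factors were then 2, as they were with voom and the replicate block. *Foxa2* passed under each of the 3 other scalings. *Glp1r* lost its call under those scalings and with no minimum (adjusted p between 0.0729 and 0.119), and *Tle3* with median centring (0.0620). Scaling and single libraries moved the split of all calls. Of all calls, 31.9% were higher with the deposited scaling, 44.1% with each library centred on its median, 42.3% after quantile normalization and 42.4% with totals that left out the 10 highest rows, and between 27.7% and 42.5% with 1 library left out (42.5% without replicate 1 at 2.8 mM, 42.0% without replicate 2 at 16.8 mM). Median centring put the median log2 fold change over all transcripts at -0.03 in place of -0.11. Quantile normalization sets the highest row equal in every library, so the change of *Ins2* became 0, and *Ins1* lost its call at 0.54.

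The replicate numbers mark no shared litter, batch or day in the labels, and deviations of same-numbered libraries correlated at 0.31 across transcripts. When the replicate number entered the fit as a block, 4067 transcripts passed in place of 2628, the factors kept their calls (6 higher, 1 lower), 4 other islet factors and 1 alpha cell factor passed, and the pairing was not used elsewhere. With voom 6282 of 15597 transcripts passed, and 8657 with voom and the block. The other islet factors called were 6 (4 higher, 2 lower) and 10 (6 higher, 4 lower), the alpha cell factors 0 and 2, and the partners and cofactors 5 in both. The partners and cofactors called were 1 with a minimum of 1 RPKM in every library and 5 after quantile normalization. The alpha cell factors called were 1 with median centring and after quantile normalization. The target genes called were 14 in the test above, 10 with no minimum and after quantile normalization, and 17 with voom. Leaving out each library in turn gave 1825 to 2579 calls in all, 5 to 6 factors higher and 1 to 2 lower, 1 to 2 partners and cofactors, 2 to 4 other islet factors, 0 alpha cell factors and 12 to 14 target genes. With 1 library left in a group, that library is assumed to vary like the other group. The lncRNAs near the factors lay under 1 RPKM at 2.8 mM, and how far depth limits them was not tested.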
